A study of Mus musculus with 9 samples.

Results

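The genes described here are 10 marker and effector genes of mouse embryonic stem cells, Utf1, Dppa2, Dppa3, Dppa4, Dppa5a, L1td1, Tdh, Zfp296, Fbxo15 and Tcl1. They were chosen by gene symbol from among 49326 named genes, with earlier results of these data known. PolyA+ RNA was sequenced from stem cells (day 0) and from embryoid bodies, the aggregates in which stem cells differentiate, at day 4 and day 8 of hanging drop culture. The wild type gave 1 library at each day. The knockout, Hnrnpll-/-, gave 2 libraries at each day, from the knockout lines G6 and H8 (1 library each), so the 9 libraries form 6 groups. All stem cells grew in serum with leukemia inhibitory factor, and no other agent or allele is named. Strain, parental line and whether G6 and H8 are clones of that line are not given in the sources used here. Eif2s3y, a Y-linked gene, stood at 82.2 to 134 TPM in the wild-type libraries and at most at 2.15 TPM in the knockout libraries, so the lines differ beyond Hnrnpll. Genotype and line cannot be told apart in any comparison. The spread behind the p-values between groups of a day, between days and for their interactions is that between the G6 and H8 libraries of a day, which may be technical as well as biological.

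Embryonic stem cells copy the inner cell mass of the blastocyst, and a network of transcription factors around Pou5f1, Sox2 and Nanog holds them in that state. Many of the genes followed here are targets of that network and go silent as cells commit to germ layers, which is why several serve as reporters of the undifferentiated state. Utf1 is a chromatin-bound cofactor. Dppa2 and Dppa4 are partner proteins with a SAP DNA-binding domain, encoded side by side, that help to activate genes of the 2-cell embryo. Dppa3, also called Stella, restrains maintenance DNA methylation through UHRF1 and is also a marker of the germline. Zfp296 is a zinc finger protein. Dppa5a (a KH domain protein) and L1td1 (derived from a LINE-1 retrotransposon protein) bind RNA. Tdh, threonine dehydrogenase, turns threonine into precursors of glycine and acetyl-CoA in the mitochondria. Fbxo15 is an F-box protein, the kind of subunit that selects substrates for SCF ubiquitin ligases, and Tcl1 is a coactivator of the kinase AKT.

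In GENCODE M21 coordinates of mm10, all 10 are protein-coding genes. Dppa4 (16: 48283733 to 48294237, plus strand) and Dppa2 (16: 48303908 to 48319723, plus strand) are neighbours. Utf1 (7: 139943789 to 139945112, plus strand) and Zfp296 (7: 19577287 to 19580656, plus strand) share a chromosome but are far apart. Dppa3 lies at 6: 122626410 to 122630272 (plus strand), Dppa5a at 9: 78367052 to 78368177 (minus strand) and L1td1 at 4: 98726734 to 98738480 (plus strand). Tdh lies at 14: 63492347 to 63509092 (minus strand), Fbxo15 at 18: 84934782 to 84981473 (plus strand) and Tcl1 at 12: 105216750 to 105222793 (minus strand). Tdh overlaps Gm17232, Zfp296 overlaps Gemin7 and Fbxo15 overlaps Timm21, each on the opposite strand. The use of strand in counting is not given in the sources used here, so the counts of these 3 members are uncertain in this respect. The pseudogenes Dppa5b and Dppa5c, also on chromosome 9, had 0 counts in both day 0 knockout libraries and in the wild type at day 8. In the other libraries they had 56 to 274 counts, while Dppa5a had at least 28864 in every library. Whether reads are shared between Dppa5a and these pseudogenes was not tested.

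Promoter windows ran from 250 bases before the annotated start to 50 after it (RefSeq, GRCm38.p6). Of the 10 genes, 4 were matched in the RefSeq table, and these 4 windows are shown. They are written 5′ to 3′ on the strand of the gene, with GC boxes (GGGCGG on either strand) and the octamer bound by POU factors (ATGCAAAT on either strand) in capitals. Utf1 is chr7:139943606-139943905 (plus strand), Zfp296 is chr7:19577037-19577336 (plus strand), L1td1 is chr4:98726504-98726803 (plus strand) and Tcl1 is chr12:105222688-105222987 (minus strand).
Utf1: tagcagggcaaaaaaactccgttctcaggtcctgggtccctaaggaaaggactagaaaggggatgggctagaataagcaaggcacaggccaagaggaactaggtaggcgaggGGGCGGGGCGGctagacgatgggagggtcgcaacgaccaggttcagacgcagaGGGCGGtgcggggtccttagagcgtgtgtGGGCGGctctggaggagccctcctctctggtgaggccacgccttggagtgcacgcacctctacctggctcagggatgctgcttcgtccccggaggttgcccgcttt
Zfp296: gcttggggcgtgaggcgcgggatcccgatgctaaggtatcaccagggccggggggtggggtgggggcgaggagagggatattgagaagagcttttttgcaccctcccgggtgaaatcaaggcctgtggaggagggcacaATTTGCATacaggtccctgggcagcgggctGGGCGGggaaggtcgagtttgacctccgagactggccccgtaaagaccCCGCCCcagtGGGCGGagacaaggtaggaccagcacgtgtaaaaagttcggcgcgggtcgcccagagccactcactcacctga
L1td1: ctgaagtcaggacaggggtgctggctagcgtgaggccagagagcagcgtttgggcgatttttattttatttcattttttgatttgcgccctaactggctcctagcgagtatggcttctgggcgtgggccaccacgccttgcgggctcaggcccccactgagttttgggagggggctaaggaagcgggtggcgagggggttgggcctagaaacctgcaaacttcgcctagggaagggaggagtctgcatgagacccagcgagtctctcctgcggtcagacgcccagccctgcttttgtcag
Tcl1: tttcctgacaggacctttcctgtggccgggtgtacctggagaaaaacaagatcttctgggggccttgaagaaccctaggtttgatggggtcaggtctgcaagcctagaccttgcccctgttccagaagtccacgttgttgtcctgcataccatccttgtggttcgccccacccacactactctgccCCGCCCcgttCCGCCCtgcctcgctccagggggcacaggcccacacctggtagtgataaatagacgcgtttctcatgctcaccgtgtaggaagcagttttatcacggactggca
The Utf1 window held 4 GC boxes, with first bases 138, 133, 85 and 56 bases before the start, of which the first 2 overlap by 1 base. Zfp296 held 3 (81, 33 and 23 bases before the start), Tcl1 held 2 (64 and 54) and L1td1 held 0. Of all 32851 windows in the table, 35.7% held at least 1 GC box. The octamer was matched in the Zfp296 window, 111 bases before the start, and in 1.74% of all windows. Neither the nuclear receptor motif AAGGTCA (4.72% of all windows) nor the TATA box TATAAA (13.6%) was matched in any of the 4. GC content was 62.0% for Utf1, 63.3% for Zfp296, 58.7% for L1td1 and 56.7% for Tcl1, against a median of 52.7% over all windows. These are matches of letters and describe no binding.

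Total counts ran from 54218051 to 184952442 per library. The knockout stem cell libraries were the shallowest (54218051 and 61626609, against at least 113059196 in the others), and 43.5% and 42.6% of their low counts fell on multiples of 4, against 30.5% to 33.2% elsewhere. Hnrnpll itself stood at 77.1, 101 and 112 TPM (transcript abundance scaled for gene length and library size) in the wild type at day 0, 4 and 8. It stood at 54.9, 61.2 and 56.5 TPM in G6 and at 24.5, 38.6 and 43.5 TPM in H8, lower than the wild type of the same day in both lines. The difference did not pass the test at any day (edgeR, adjusted p = 0.245, 0.376 and 0.212), and a gene-level count does not show whether the transcript is intact. The 6 embryonic stem cell markers summed to 2640 TPM in wild-type stem cells and to 4210 and 4620 TPM in knockout stem cells, and each was above 1 TPM in all 9 libraries.

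In wild-type cells, 9 of the 10 genes were lower at day 8 than at day 0. Dppa5a stood at 3647 TPM at day 0, 1008 at day 4 and 715 at day 8, and was the most abundant of the 10 genes in every library. L1td1 was the next, at 716, 324 and 105 TPM. Expressed as a share of the day 0 level, the 10 genes stood at a median of 32.8% at day 4 and 19.75% at day 8, and 8 of the 10 were below 50% at each of these days. Fbxo15 and Dppa2 were the lowest, at 7.27% and 8.7% of their day 0 level at day 8. The shares of all genes that were lower than at day 0, or below 50%, were not counted. With 1 library a day, the wild-type course carries no test. Bodies are mixtures of cells, and in bulk RNA fewer cells of a type and less RNA per cell cannot be told apart.

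The genes differed in the timing of their lower levels. Fbxo15 (342, 37.2 and 24.9 TPM at day 0, 4 and 8), Dppa2 (197, 22.0 and 17.1) and Tdh (335, 90.1 and 66.6) took most of their step before day 4. Fitted log2 differences from day 0 to 4 were -3.12, -3.08 and -1.81 for these genes, against -0.77, -0.55 and -0.65 from day 4 to 8. Utf1 (269, 102 and 36.1 TPM) and L1td1 took the larger step after day 4, with -1.32 and -1.06 before it and -1.69 and -1.83 after. Dppa4 (156, 63.5 and 35.2 TPM) took similar steps of -1.21 and -1.05, although its neighbour Dppa2 did not.

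A few genes left this course. Zfp296 was scarce in wild-type cells at all days (13.1, 9.73 and 7.73 TPM) and stood at 58.8% of its day 0 level at day 8. Tcl1 was at 39.9, 7.41 and 14.0 TPM, lowest at day 4. Dppa3 was the exception in direction, at 4.03, 13.3 and 7.80 TPM (200, 760 and 424 counts), with its lowest value in stem cells.

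**Figure D1:**
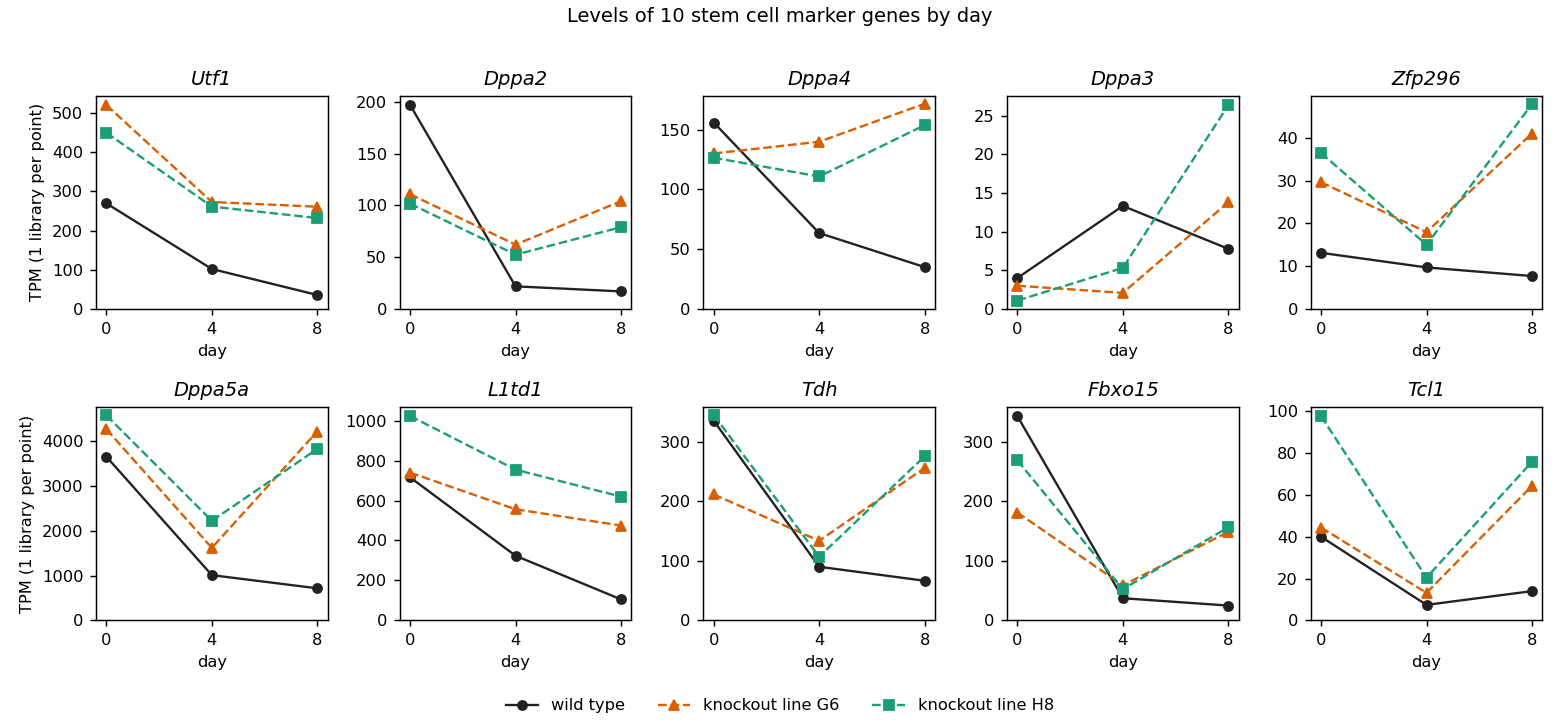
TPM (vertical axis, linear from 0, its own scale in each panel) of the 10 genes against day (horizontal axis), 1 point per library, for the wild type and knockout lines G6 and H8. At day 8 both knockout points lie above the wild-type point in all 10 panels, and Dppa3 is the gene whose wild-type level is lowest at day 0.

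In stem cells at day 0, 1 of the 10 genes was called higher in the knockout (edgeR quasi-likelihood F test, Benjamini-Hochberg adjusted p under 0.05 over 24794 genes), and none was called lower. Over all genes tested, 1.11% were called higher, 4.33% lower and 5.43% in either direction. Utf1 was the gene called, at 520 and 449 TPM in lines G6 and H8 against 269 TPM in the wild type, a log2 difference of 0.85 (SE 0.17, adjusted p = 0.0464). Its call was lost without any 1 of the 6 knockout libraries (adjusted p up to 0.127) and without the filter on low counts (adjusted p = 0.0534), while the difference stayed between 0.79 and 0.89 in all these fits.

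The other 9 genes fell on both sides of the wild type. Zfp296 was at 29.6 and 36.4 TPM against 13.1, a log2 difference of 1.35 (SE 0.28) with an adjusted p of 0.0507, just outside the threshold, and it passed without the G6 library of day 0 or the wild-type library of day 8 (adjusted p = 0.0386 and 0.044). Dppa2 was at 111 and 102 TPM against 197, a difference of -0.88 (SE 0.214, adjusted p = 0.0727). In TPM, both knockout lines were above the wild type for 5 genes (Utf1, Zfp296, Dppa5a, L1td1 and Tcl1) and below it for 4 (Dppa2, Dppa3, Dppa4 and Fbxo15), while Tdh was split. After TMM scaling of the counts L1td1 was split too, with G6 at -0.03 from the wild type on the log2 scale. Among all genes with at least 1 TPM in a library of that day, 37.6% were above and 38.3% below in both lines. The median log2 difference of the 10 genes was 0.01, and that of all genes tested was -0.02. Markers of fibroblasts or feeder cells, 6 genes that the labels give no source for, summed to 180 TPM in wild-type and to 137 and 68.6 TPM in knockout stem cells, with 1 of the 6 under 1 TPM in H8. Their part in the differences was not tested.

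In day 4 bodies, 9 of the 10 genes were above the wild type in both knockout lines, and Dppa3 was below it in both. Over all genes of that day, 47.1% were above in both lines and 34% below. None of the 10 differences passed the edgeR test, in which 0.00807% of all genes were called. At an unadjusted p under 0.05 there were 7 (13.5% of all genes), DESeq2 called 3 (6.45%) and limma-voom 0 (0.226%). Utf1 was at 273 and 261 TPM in lines G6 and H8 against 102 in the wild type, a log2 difference of 1.31 (SE 0.174, adjusted p = 0.115). Dppa2, whose knockout values in stem cells were below the wild type, was at 62.2 and 52.5 TPM against 22.0, a difference of 1.3 (SE 0.234, adjusted p = 0.137). Dppa3 was at 2.10 and 5.33 TPM against 13.3, a difference of -1.9 (SE 0.756, adjusted p = 0.36). The other 7 differences ran from 0.33 for Tdh to 1.22 for Tcl1, and the median over the 10 genes was 0.88, against 0.07 for all genes tested. The 3 primitive streak markers T, Mixl1 and Eomes, transcription factors of early mesoderm and endoderm, summed to 1360 TPM in the wild type at day 4 and to 51.7 and 116 TPM in lines G6 and H8. Their median log2 difference was -4.03, and none passed (adjusted p at least 0.115, for Eomes). Their part in the differences of the 10 genes was not tested.

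In day 8 bodies, 8 of the 10 genes were higher in the knockout, by 4.44 to 7.42 times, and none was lower. Over all genes tested, 5.01% were called higher, 4.86% lower and 9.87% in either direction. In both knockout lines all 10 genes were above the wild type, against 38.5% of all genes with at least 1 TPM in a library of that day, of which 49% were below it in both lines. The median log2 difference of the 10 genes was 2.52, and that of all genes tested was 0.08. The same wild-type library of day 8 stands in all 10 differences.

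Of the genes that act on chromatin and transcription, Utf1 was at 261 and 232 TPM in lines G6 and H8 and at 36.1 TPM in the wild type. Its fitted level was 7.42 times that of the wild type (log2 2.89, SE 0.191, adjusted p = 0.0142). Dppa2 was at 104 and 79.0 TPM against 17.1, a log2 difference of 2.54 (SE 0.251, adjusted p = 0.015). Its partner Dppa4 was at 172 and 154 TPM against 35.2, a log2 difference of 2.33 (SE 0.212, adjusted p = 0.0142). For these 3 genes the G6 value was above the H8 value, and neither came near the wild type. Zfp296 was at 41.0 and 47.8 TPM against 7.73, a difference of 2.64 (SE 0.302, adjusted p = 0.0176). Dppa3 was at 13.8 and 26.3 TPM against 7.80, and its log2 difference of 1.48 (SE 0.84) did not pass the test (adjusted p = 0.296). The Dppa3 difference was the smallest of the 10 and had the largest SE, with the H8 library holding 2266 counts and the G6 library 988.

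Of the RNA-binding proteins, Dppa5a was at 4209 and 3820 TPM against 715, a log2 difference of 2.61 (SE 0.278, adjusted p = 0.0175). It made up 73.3% and 69.6% of the summed TPM of the 10 genes in these knockout bodies and 69.4% in the wild type. L1td1 was at 475 and 620 TPM against 105, a difference of 2.49 (SE 0.368, adjusted p = 0.0231). The metabolic enzyme Tdh was at 256 and 276 TPM against 66.6, a difference of 2.15 (SE 0.356, adjusted p = 0.026). For each of these 3 genes both knockout values were above the wild-type values of day 4 and day 8.

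Fbxo15 was at 148 and 156 TPM against 24.9 in the wild type, a log2 difference of 2.73 (SE 0.322, adjusted p = 0.018). Tcl1 was at 64.2 and 75.7 TPM against 14.0, and its difference of 2.4 (SE 0.612) missed the threshold (adjusted p = 0.062). It passed in 6 of 9 other settings, among them the fit with a term for the line (adjusted p = 0.0253) and the fit without the day 0 knockout libraries (adjusted p = 0.0266), over a range of 0.000305 to 0.0642. Of the genes that overlap members on the opposite strand, Timm21 (log2 -0.56, adjusted p = 0.379) and Gemin7 (-0.29, adjusted p = 0.457) lay on the other side of 0 from Fbxo15 and Zfp296. Gm17232, over Tdh, was higher with it (2.3, adjusted p = 0.0491), at 4.94 and 5.58 TPM against 1.13.

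**Figure D2:**
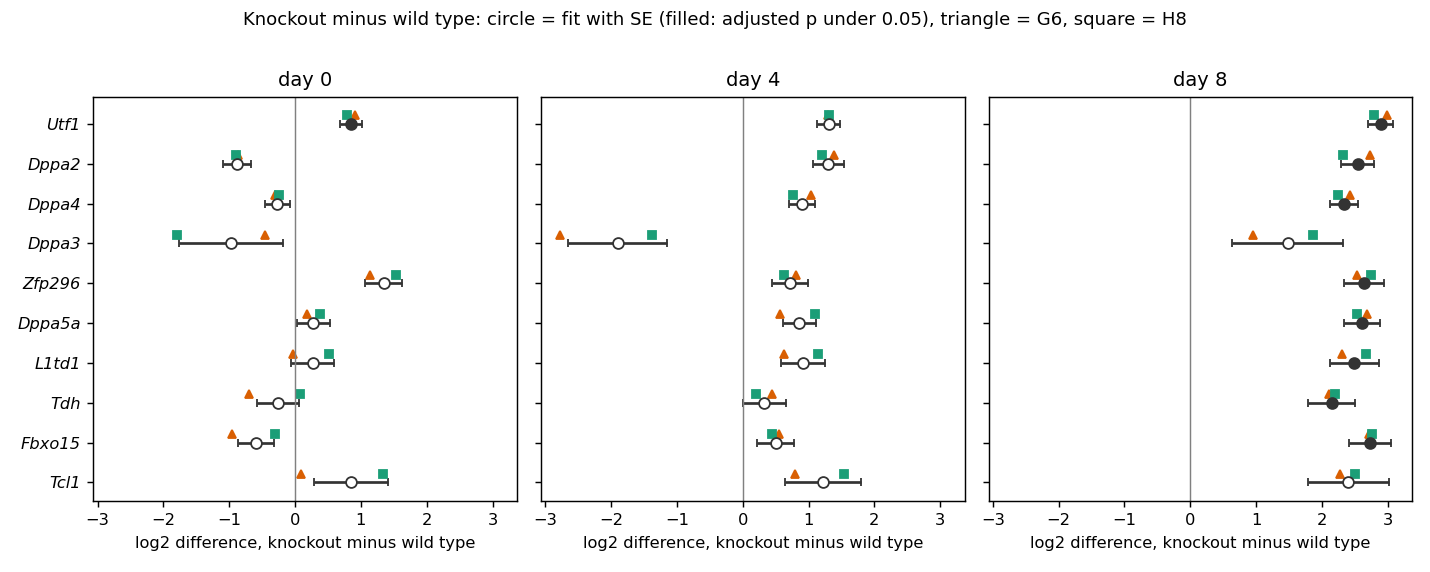
Log2 difference, knockout minus wild type (horizontal axis), for the 10 genes (vertical axis) at day 0, 4 and 8. Circles are the edgeR estimate with its SE (bars), filled where the adjusted p is under 0.05, and triangles and squares are the differences of G6 and H8 alone. The estimates straddle 0 at day 0 (median 0.01) and all lie above 1 at day 8, where 8 circles are filled.

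The number of calls at day 8 rests on the knockout libraries more than the differences do. Without the G6 or the H8 library of day 4, or the G6 library of day 8, 0 of the 10 genes passed, and without the H8 library of day 8 there were 6 (Utf1, Dppa2, Dppa4, Dppa5a, Zfp296 and Fbxo15). In these fits the 10 differences were positive, from 0.99 to 3.02. Adjusted p-values were at least 0.0561 in the 2 fits without a day 4 library, where no gene of the whole table was called. Of 17 markers in 4 lists of differentiated cells, 8 were lower in the knockout at day 8, none was higher and 9 did not pass. Over all genes, 4.86% were lower. All 4 cardiomyocyte markers were among the 8, with 2 of 6 fibroblast, 1 of 3 yolk sac endoderm and 1 of 4 blood and endothelial markers. The 4 cardiomyocyte markers summed to 231 TPM in the wild type and to 6.78 and 9.59 TPM in lines G6 and H8, and the 6 fibroblast markers to 717 against 13.0 and 44.1 TPM. The 3 yolk sac endoderm markers summed to 224 against 14.4 and 32.2 TPM, and the 4 blood and endothelial markers to 578 against 50.8 and 50.7 TPM. In this last sum the embryonic globin Hbb-bh1 was at 462 TPM in the wild type and at 0 and 2.61 TPM in the knockout, while Pecam1, which stem cells also express, was at 21.1 against 49.0 and 41.6 TPM (log2 1.24, adjusted p = 0.14). Thy1 of the fibroblast list was the other of the 17 markers with a positive difference (0.94, adjusted p = 0.28). All 17 of these markers were above 1 TPM in the wild-type library, while in G6 7 of them were under 1 TPM and in H8 2 were. The 3 neural markers, outside these 17, summed to 32.6 TPM in the wild type and to 18.0 and 29.4 TPM in lines G6 and H8. None of the 3 passed, their median log2 difference was 0.67, and 2 of them were under 1 TPM in the wild type. The part of all these markers in the differences of the 10 genes was not tested. The 7 primordial germ cell markers were read because Dppa3 is also a germline gene. They summed to 121 TPM in the wild type and to 156 and 136 TPM in lines G6 and H8. Kit was the largest part of each sum, at 80.2 TPM against 72.9 and 49.9 TPM. The median log2 difference of the 7 was 0.57, and 1 of the 7 was called higher (Dazl, log2 2.31, edgeR, adjusted p = 0.0364).

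From day 0 to day 4 of the knockout course, 7 of the 10 genes fell, and none rose. Over all genes tested, 5.16% fell, 9.56% rose and 14.7% passed in either direction. Fbxo15 went from 181 and 268 TPM in lines G6 and H8 to 58.8 and 52.4, and fell by 2.03 on the log2 scale (SE 0.236, adjusted p = 0.00555). Tcl1 went from 44.4 and 97.5 TPM to 13.2 and 20.4, and fell by 2.13 (SE 0.46, adjusted p = 0.0325). In both genes, as in the others called, the day 0 and day 4 TPM values did not overlap. The share of all genes with no overlap was not counted. The 7 genes were called by the test on these same libraries, so their separation adds no support. Tdh fell by 1.21, Dppa5a by 1.2, Zfp296 by 1.02, Dppa2 by 0.89 and Utf1 by 0.86, with adjusted p between 0.0133 and 0.0332.

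Dppa4 and L1td1 did not pass. Dppa4 was at 130 and 126 TPM in knockout stem cells and at 140 and 111 in day 4 bodies, with a log2 difference of -0.04 (SE 0.154, adjusted p = 0.893). L1td1 was at 740 and 1023 TPM and then at 556 and 754, a difference of -0.42 (SE 0.264, adjusted p = 0.319). Dppa3 differed in direction between the lines, with a step of -0.51 in G6 and 2.23 in H8. The count of 7 became 0 without the G6 library of day 4, 1 without the H8 library of day 4, and 4 without the H8 library of day 0 or without either day 8 knockout library.

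From day 4 to day 8, 8 of the 10 genes had positive differences in the knockout, and none passed the edgeR test, in which 0.311% of all genes were called (0.165% higher and 0.145% lower). At an unadjusted p under 0.05 there were 8 (13.2% of all genes), DESeq2 called 6 (7.3%) and limma-voom 3 (1.65%). Without either day 0 knockout library edgeR called 2 (Tdh and Fbxo15). Zfp296 went from 18.0 and 15.0 TPM to 41.0 and 47.8 (log2 1.43, SE 0.219, adjusted p = 0.068). Fbxo15 went to 148 and 156 TPM (1.46, SE 0.232, adjusted p = 0.0763), and Dppa5a from 1616 and 2219 to 4209 and 3820 TPM (1.07, SE 0.2, adjusted p = 0.0992). In all 8 genes with positive differences both day 8 TPM values were above both day 4 values. The share of all genes with this pattern was not counted. The 8 genes were picked by the sign of the same differences, so the pattern adds no support for a rise. Utf1 (-0.11) and L1td1 (-0.26) were the genes with negative differences, and the largest positive ones were those of Dppa3 (2.42) and Tcl1 (2.09). The median over the 10 genes was 1.12, and over all genes tested 0.01.

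Over the whole knockout course, from day 0 to day 8, Utf1 fell and Dppa3 rose. This comparison was added after the data had been seen. Of all genes tested, 1.97% were called lower, 5.92% higher and 7.9% in either direction. Utf1 fell by 0.97 on the log2 scale (SE 0.135, adjusted p = 0.0144), to 50.2% of its day 0 TPM in G6 and 51.7% in H8. Dppa3, at 3.03 and 1.12 TPM in knockout stem cells (73 and 31 counts), rose by 3.29 (SE 0.71, adjusted p = 0.0457), or 9.81 times. The Dppa3 call was lost with limma-voom and with a term for the line (adjusted p = 0.0526 and 0.0623). It was also lost, as that of Utf1 was, without either day 4 or either day 8 knockout library, and it was lost without either day 0 knockout library (adjusted p up to 0.173 for Dppa3 and 0.103 for Utf1 over these fits). L1td1 missed the threshold (-0.68, adjusted p = 0.169) and passed with a term for the line (-0.66, adjusted p = 0.033). The other 7 differences ran from -0.57 to 0.41.

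**Figure D3:**
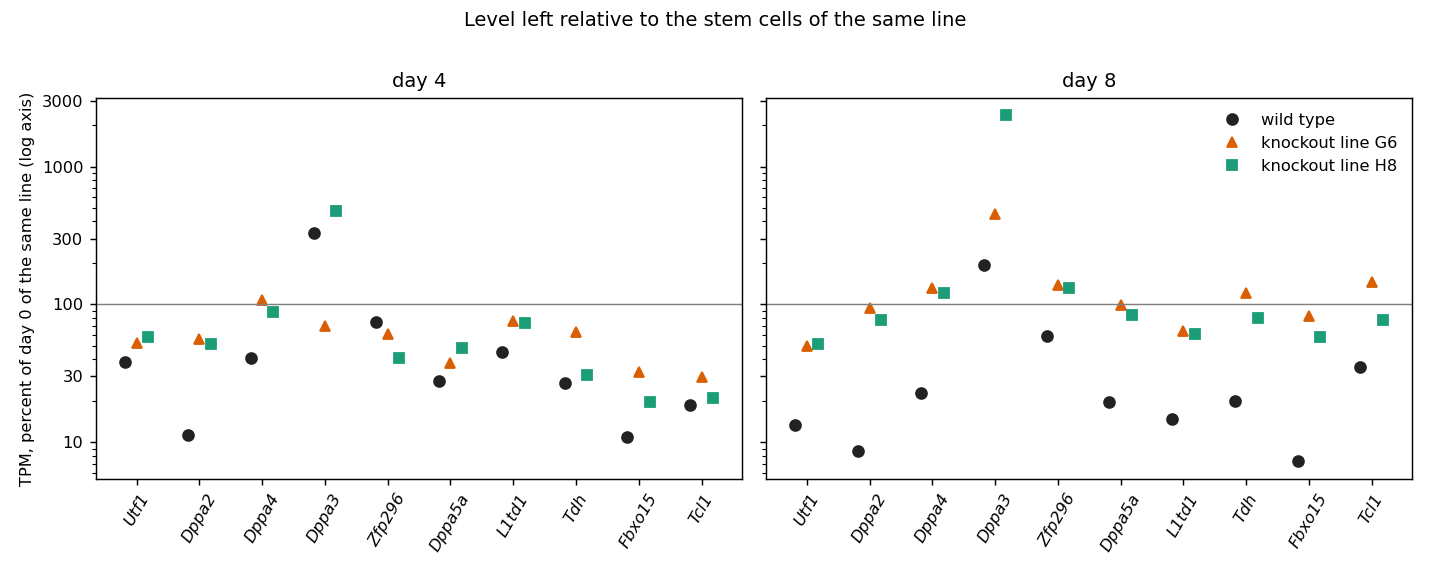
TPM at day 4 and day 8 as a percentage of the day 0 TPM of the same line (vertical axis, log scale), for the 10 genes (horizontal axis), 1 point per library. The horizontal line marks 100%. At day 8 the median gene was at 19.75% in the wild type, 109.9% in G6 and 78.8% in H8.

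Measured against their own stem cells, knockout bodies held at day 4 a median of 58.45% in G6 and 50.15% in H8, and at day 8 a median of 109.9% and 78.8%. At day 8 the lowest gene was Utf1 in both lines, and no gene was below 50%, while 8 genes were in the wild type. Dppa4 (132% and 122%), Zfp296 (138% and 131%) and Dppa3 (456% and 2350%) were above their day 0 level in both knockout lines. Tdh and Tcl1 were above it in G6 (121% and 145%) and below it in H8 (79.9% and 77.7%).

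Whether the steps themselves differed between genotypes was tested by the interaction, the knockout step minus the wild-type step. From day 0 to 4 none of the 10 passed with edgeR, which called 0.504% of all genes. There were 3 at an unadjusted p under 0.05 (17.2% of all genes), DESeq2 called 2 (8.86%) and limma-voom 0 (0%). Dppa2 came nearest, with a step of -0.89 in the knockout and -3.08 in the wild type (difference 2.19, SE 0.315, adjusted p = 0.0565). From day 4 to 8 all 10 differences were positive, from 1.18 for Tcl1 to 3.38 for Dppa3. None passed with edgeR, which called 0% of all genes, while 9 had an unadjusted p under 0.05 (16.3% of all genes), DESeq2 called 9 (7.53%) and limma-voom 0 (0%).

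Over the span from day 0 to 8, a comparison added after the data had been seen, 6 of the 10 interactions passed and all 10 were positive. Of all genes tested, 3.75% were called higher, 0.948% lower and 4.7% in either direction. Dppa2 differed most (3.42, SE 0.322, adjusted p = 0.016), with steps of -0.21 in the knockout and -3.63 in the wild type. Fbxo15 followed (3.33, SE 0.408, adjusted p = 0.0196), with steps of -0.57 and -3.89. Dppa4 (2.61), Tdh (2.41), Dppa5a (2.33) and Utf1 (2.04) also passed. L1td1 (2.22, adjusted p = 0.0544, and 0.0225 with a term for the line), Dppa3 (2.45), Tcl1 (1.55) and Zfp296 (1.29) did not. None passed without any 1 of the 4 knockout libraries of day 4 and day 8, where the 10 differences lay between 1.21 and 3.65. This comparison shares its libraries with those at day 0 and day 8 and adds no independent measurement.

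**Figure D4:**
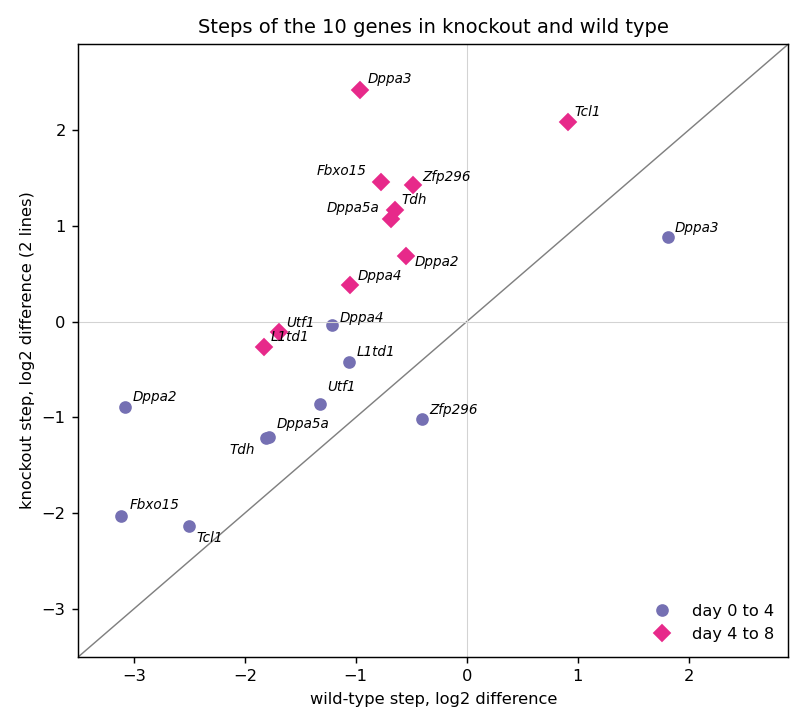
Log2 step of the 10 genes in the knockout (vertical axis, fitted over 2 lines) against the step in the wild type (horizontal axis, 1 library a day), from day 0 to 4 (circles) and from day 4 to 8 (diamonds). On the diagonal both steps are equal. All 10 diamonds lie above the diagonal, and the circles of Dppa3 and Zfp296 lie below it.

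Averaged over the 3 days, none of the 10 genes passed with edgeR, which called 0.984% of all genes. There were 5 at an unadjusted p under 0.05 (19.7% of all genes), DESeq2 called 5 (14.6%) and limma-voom 2 (3.57%), and edgeR called Utf1 and Dppa2 without the wild-type library of day 0. Utf1 (log2 1.59, SE 0.342, adjusted p = 0.0652) and Zfp296 (1.49, SE 0.347, adjusted p = 0.0743) came nearest. After TMM scaling, Utf1, Zfp296, Dppa5a and Tcl1 were above the wild type in both knockout lines at all 3 days. The share of all genes with this pattern over the 3 days was not counted. On single days, in TPM, 37.6%, 47.1% and 38.5% of all genes were above in both lines at day 0, 4 and 8. These shares are of genes with at least 1 TPM in a library of the day. Between the lines, H8 minus G6 was called for none of the 10 (0.0121% of all genes were called), and 0 of the 10 had an unadjusted p under 0.05 (3.51% of all genes). DESeq2 called 0 (0.762%) and limma-voom 0 (0.0363%). The line differences ran from -0.25 for Dppa2 to 0.67 for Tcl1. In TPM, L1td1 and Tcl1 were higher in H8 at all 3 days, and Utf1, Dppa2 and Dppa4 were higher in G6 at all 3. After TMM scaling, H8 was the higher by a small margin for Dppa4 at day 0 (108 against 104 CPM) and Utf1 at day 4 (178.1 against 177.4 CPM). The spread in these averaged and line comparisons also holds departures from a difference that is the same at all days. The averaged fit has no term for the line and takes the libraries of a line at the 3 days as independent.

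Among themselves, 9 of the genes were correlated over the 9 libraries. The Pearson correlation of a gene's log2(TPM + 1) with the mean of the other 9 (each gene standardised) was 0.98 for Dppa5a, 0.93 for Tdh, 0.9 for Fbxo15 and 0.8 or more for Dppa2, Dppa4, Tcl1, Utf1, Zfp296 and L1td1. For Dppa3 it was -0.22. These values are descriptive, since the libraries share lines and days. Outside the set, the 5 genes with the most similar pattern among 11969 candidates with at least 10 TPM in a library were Zswim1 (r = 0.974), Ndufs5 (0.972), Sox15 (0.972), Gm5424 (0.971) and Sox2 (0.97). The correlation does not measure the size of a change. Ndufs5 ran only from 26.6 to 43.0 TPM over the 9 libraries, with a day 8 log2 difference of 0.6 (edgeR, adjusted p = 0.188). Sox15 is an SRY-box factor of stem cells. It was at 18.3, 6.38 and 4.11 TPM in the wild type, 23.4, 14.3 and 25.1 in G6 and 21.2, 13.8 and 33.6 in H8.

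Of 16 pluripotency regulators, transcription factors of the stem cell network, 2 were called higher in knockout stem cells (Zfp42, log2 1.09, and Esrrb, 1.02) and none lower. Over all genes tested, 1.11% were called higher and 4.33% lower there. At day 4 the count was 0 (0.00807% of all genes). At day 8 10 of 16 were higher and none lower, against 5.01% and 4.86% of all genes. The median of the 16 was 2.57, against 0.08 over all genes. Nr0b1 (3.56), Klf5 (3.39), Esrrb (3.11) and Nanog (3.02) had the largest of these differences. In the knockout course 13 of 16 fell from day 0 to 4 (5.16% of all genes), led by Klf4, which fell by 4.73. From day 4 to 8, 2 rose (Zfp42 by 2 and Esrrb by 1.56), against 0.165% of all genes. The day 8 count was 0 without the G6 or H8 library of day 4 or the G6 library of day 8, and 6 without the H8 library of day 8. The count of 13 became 6 without either day 4 knockout library, and both counts of 2 became 0 without any 1 of the day 4 or day 8 knockout libraries.

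Genes of the 2-cell embryo, which Dppa2 and Dppa4 are known to help activate, were read in 9 of 10 listed genes, since 1 symbol was not matched. In stem cells 6 of the 9 were lower in the knockout and none higher, against 4.33% and 1.11% of all genes tested. Zscan4d was at 59.6 TPM in the wild type and at 1.29 and 2.95 TPM in lines G6 and H8 (log2 -4.78, SE 0.765, adjusted p = 0.026). Zscan4f (-4.51), Tcstv3 (-4.5) and Zscan4c (-4.33) were called with it, and counts within these families of near-identical copies are uncertain. At day 8 1 of the 9 was higher (Gm8300, 2.1), against 5.01% of all genes. The day 0 count was 1 or 2 without any 1 of the day 4 or day 8 knockout libraries or the G6 library of day 0. In the same knockout stem cells Dppa2 stood at 111 and 102 TPM, against 197 TPM in the wild type. Dppa4 stood at 130 and 126 TPM, against 156 TPM. Neither was called there (edgeR, adjusted p = 0.0727 and 0.414). Whether these levels bear on the genes of the 2-cell embryo was not tested.

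Calls among the partners of the other members stand beside 5.43% of all genes called at day 0 and 9.87% at day 8. Of 10 genes of threonine, glycine and methyl donor metabolism around Tdh, Shmt2 was higher in knockout stem cells (log2 1.08) and Amt, of the glycine cleavage system, at day 8 (1.32), and no other passed. The median at day 8 was 0.51, against 0.08 over all genes. Of 8 genes that maintain or remove DNA methylation, the process Dppa3 acts on, Dnmt3b was lower at day 0 (-1.5). At day 8 Dnmt3l (2.48) and Tet2 (1.53) were higher and Tet3 lower (-2.11). Uhrf1, the partner of Dppa3, was at 221 and 207 TPM against 141 at day 8 (0.71, adjusted p = 0.0966).

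Of 6 partners of Fbxo15 and Tcl1, Cul1 (log2 -1) and Akt1 (-0.97) were lower in the knockout at day 8 and no other passed, so the SCF scaffold and the AKT kinase lay on the other side of 0 from Fbxo15 and Tcl1. Of 10 further genes, namely relatives of members and the RNA-binding proteins Lin28a and Lin28b, which are no paralogs of L1td1, 6 were tested. Ooep (2.58) and Khdc3 (2.09), relatives of Dppa5a, were higher at day 8, and Lin28a was lower at day 0 (-1.36) and at day 8 (-0.78). The Tcl1 relatives Tcl1b1 to Tcl1b5 and Dppa1 were at most at 1.44 TPM in any library. The day 8 counts of these partner and related gene lists were 0 without the G6 or H8 library of day 4 or the G6 library of day 8.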

How the data were processed

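For each library the authors deposited read counts per gene, whole numbers with no scaling between libraries, and TPM per gene, which are scaled for gene length and library size. The submitters' processing notes name HISAT2 2.0.5, StringTie 1.3.3b and mm10, and which step each did, the gene annotation and whether strand was used are not given in the sources used here. Each count table holds 259 entries with no gene name (at most 0.04% of counts), which were left out. A gene was tested if 2 or more libraries reached 0.079 CPM, the value of 10 counts in the library of median size, and 24794 genes, all 10 members among them, were kept. After TMM scaling, p-values (2-sided) came from quasi-likelihood F tests in edgeR 4.0.16 (R 4.3.3, limma 3.58.1). They were adjusted over these genes by Benjamini-Hochberg, with a threshold of 0.05. The model held a mean for each of the 6 groups (3 residual degrees of freedom, from the 2 knockout lines at each day), so each wild-type library is taken to vary as the knockout ones do. The SE is the log2 difference divided by the square root of F. Knockout against wild type over all days and H8 against G6 came from additive models with day (5 and 4 residual degrees of freedom), whose spread also holds departures from additivity. The scripts were tested on simulated data. TPM values are printed for levels.

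Same-numbered knockout libraries come from the same line, and the H8 minus G6 differences correlated between days over 15732 genes (r = 0.202, 0.173 and 0.419), so a replicate block (a term for the line) was an alternative. Others were RLE and total count scaling, no filter, DESeq2 1.42.0, limma-voom, limma on log2(TPM + 1) or log2(TPM + 0.1), and each library left out. Leaving out both day 0 knockout libraries, and the comparisons from day 0 to 8, were chosen after seeing the data. The members and lists were chosen with earlier results of these data known. Named genes are the members, the 5 most similar genes, and up to 4 called genes per list. Uhrf1, Hnrnpll, Eif2s3y, Hbb-bh1, Pecam1, Thy1, Kit, Dppa5b, Dppa5c, the primitive streak markers, the overlapping genes and the Tcl1 relatives and Dppa1 were named outside that rule, after their values were seen.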

Additional observations from a re-analysis of the deposited data

Results flagged for a closer look

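For 6 genes the change from day 0 to day 8 differed between the genotypes by the test of the interaction (edgeR, adjusted p under 0.05), the knockout step minus the wild-type step on the log2 scale, with 2 knockout lines and 1 wild-type library a day. The value was 3.42 for Dppa2 (adjusted p = 0.016), 3.33 for Fbxo15 (adjusted p = 0.0196), 2.61 for Dppa4 (adjusted p = 0.016), 2.41 for Tdh (adjusted p = 0.0448), 2.33 for Dppa5a (adjusted p = 0.0285) and 2.04 for Utf1 (adjusted p = 0.0178). In all 6 the wild-type step was the lower, from -3.89 for Fbxo15 to -2.26 for Dppa4. The knockout step ran from -0.97 for Utf1 to 0.34 for Dppa4. None of the 6 passed without any 1 of the knockout libraries of day 4 or day 8. No group has the 4 samples that a check for outlying samples needs.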

How the results depend on the processing

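Every count below is of the 10 genes. The wild type has 1 library a day. Leaving out 1 library each gave 0 to 2 calls at day 0, 0 at day 4, 0 to 9 at day 8, 0 to 7 in the knockout from day 0 to 4, 0 to 2 from day 4 to 8 and 0 to 2 from day 0 to 8, 0 for both shorter interactions, 0 to 7 for the interaction from day 0 to 8, 0 to 2 over all days and 0 between lines. At day 0 there were 2 calls with RLE, total count scaling and either TPM fit, 3 with DESeq2 and 0 with no filter. DESeq2 gave 3 calls at day 4, 6 in the knockout from day 4 to 8, 2 and 9 for the interactions from day 0 to 4 and from day 4 to 8, and 5 over all days. Limma-voom gave 3 in the knockout from day 4 to 8, 1 from day 0 to 8 and 2 over all days. The TPM fits gave 1 each for the interaction from day 0 to 4. Over all days there was 1 with no filter and 2 with log2(TPM + 0.1). Without the day 0 knockout libraries there were 2 from day 4 to 8. The replicate block gave 9 calls at day 8 (8 without it) and 7 for the interaction from day 0 to 8 (6 without it), moved Dppa3 and L1td1 across the threshold in the knockout from day 0 to 8, and changed no other call of a gene. Over all days 39.3% of all called genes were higher, and 49.5% with total count scaling.

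Of 1660 fits of single genes, 1640 kept the sign, among them 92 that lost and 69 that gained a call, and 20 changed sign. With total count scaling Dppa4 was at 0.02 in the knockout from day 0 to 4, and from day 0 to 8 Tdh was at 0.02 and Tcl1 at 0.03. From day 0 to 8 limma-voom gave 0.00 for Tdh and 0.07 for Tcl1, and both TPM fits and the block 0.08 for Tcl1. Over the fits that left out 1 library, Dppa3 ran from -1.48 to 0.08 and Fbxo15 from -0.09 to 1.45 over all days, Tdh from -0.72 to 0.07 and L1td1 from -0.05 to 0.52 at day 0, and Tcl1 from -0.15 to 1.12 in the interaction from day 0 to 4 (-0.05 without the H8 library of day 4). In the knockout Dppa4 ran from -0.18 to 0.09 from day 0 to 4, L1td1 from -0.49 to 0.03 from day 4 to 8, and Tdh from -0.39 to 0.40 and Tcl1 from -0.55 to 0.72 from day 0 to 8 (0.00 and 0.06 without the G6 library of day 8). The cause was not tested. Dppa3 had 31 and 73 counts in knockout stem cells.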
